A study of Homo sapiens with 2 samples.

Results

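The genes described here are 10 members of the extrinsic apoptosis pathway: the death receptors FAS, TNFRSF10A, TNFRSF10B and TNFRSF1A, the decoy receptors TNFRSF10C and TNFRSF10D, the adaptor FADD, the inhibitor CFLAR and the initiator caspases CASP8 and CASP10. They were taken by gene symbol as 10 of the 57485 genes in the deposited expression tables, and they were selected on measured values of the same 2 libraries (their FPKM and its ratio), so their levels and ratios are a description and carry no test. The cells were ARP1, a human multiple myeloma line, and the titles of both libraries name SRD5A1. The study describes a lentiviral shRNA against SRD5A1 in the TRIPZ vector, where doxycycline (Dox) switches the hairpin on. One library came from untreated cells (without Dox) and 1 from cells given Dox (with Dox), at a dose and time that the labels do not give. The genotype label of the library with Dox names SRD5A2 where its title names SRD5A1. No library treated with Dox but lacking the hairpin was analysed here, so Dox itself and the hairpin cannot be told apart.

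Death receptors are membrane proteins of the TNF receptor superfamily that carry a death domain inside the cell. When a ligand such as FASLG or TRAIL (TNFSF10) clusters them, FADD joins the receptor tail and gathers CASP8 and CASP10, which then cleave each other and start the caspase cascade, while CFLAR (cellular FLIP) takes the place of a caspase in that complex and restrains it. Decoy receptors bind TRAIL but lack a working death domain, and TNFRSF1A, the main TNF receptor, recruits FADD and CASP8 only through a second complex that forms inside the cell. TRAIL receptors have been studied as drug targets in myeloma, a cancer of plasma cells.

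The libraries held 45918570 and 48728927 expected counts, and 3 counts equalled 0.0653 and 0.0616 CPM (counts scaled by the library total only). The RNA of the targeted gene went against its label. SRD5A1, a steroid 5-alpha reductase, stood at 13.04 FPKM (fragments scaled by transcript length and library size) without Dox and at 25.88 FPKM with Dox, from 1375 and 3013.99 expected counts, a log2 ratio of 0.98 (95% counting interval 0.89 to 1.08). SRD5A2, named by the other genotype label, had 6 and 19 counts. By western blot, the study reports less SRD5A1 protein in ARP1 cells after Dox, which is a measure of protein and not of RNA. Every direction below is therefore that of the library labelled with Dox over the library labelled without Dox, with no replicate in either. If the labels of the libraries had been exchanged, each ratio and share below would be turned around, and this was not tested. As a check of the cell type, 8 of 8 plasma cell markers were at 1 FPKM or more. Their summed level was 2398.37 FPKM without Dox and 2304.81 FPKM with Dox, but single markers differed more than the sum. Past 2-fold higher with Dox were 2 of 8, and 0 were past 2-fold lower. SLAMF7 had 15.73 and 41.75 FPKM, a log2 ratio of 1.40, and TNFRSF17 had 97.72 and 203.73 FPKM (1.06). The call of TNFRSF17 depended on the scaling, as given below. The other 6 were within 2-fold, among them SDC1 at -0.54. The 12 markers of T, B, myeloid, epithelial, fibroblast and endothelial cells summed to 9.92 FPKM without Dox and 5.51 FPKM with Dox. Among them 3 of 12 were at 1 FPKM or more, and CD3D, a T cell marker, had 0 counts in both libraries. The highest of these, KRT18, a keratin, stood at 6.0 and 1.44 FPKM, and its part in the results was not tested.

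The RNA of FAS, TNFRSF10B, TNFRSF1A and CFLAR was over 2-fold higher in the library labelled with Dox, that of the decoy receptor TNFRSF10D was over 2-fold lower, and that of TNFRSF10A, FADD, CASP8 and CASP10 lay within 2-fold. Of the 10 genes, 9 reached 1 FPKM in at least 1 library, as did 14859 of all genes, and these were compared. The log2 ratio was taken on FPKM with a pseudocount of 0.1, which understates the ratio of low genes. So 4 of 9 were past 2-fold higher and 1 of 9 past 2-fold lower, beside 17.0% and 6.41% of all genes compared, or 23.4% in either direction. The median log2 ratio of all genes compared was 0.15, with the 25th and 75th percentiles at -0.33 and 0.71, and percentiles of the ratio are given below on that distribution. Under TMM and DESeq2 size factors this median shifted by -0.20 and -0.22, and the genes past 2-fold split into 1946 higher and 1527 lower or 1922 higher and 1562 lower, in place of 2521 and 953. The members kept their 4 and 1 under both. In bulk RNA, fewer cells of a type and less RNA per cell cannot be told apart.

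**Figure D1:**
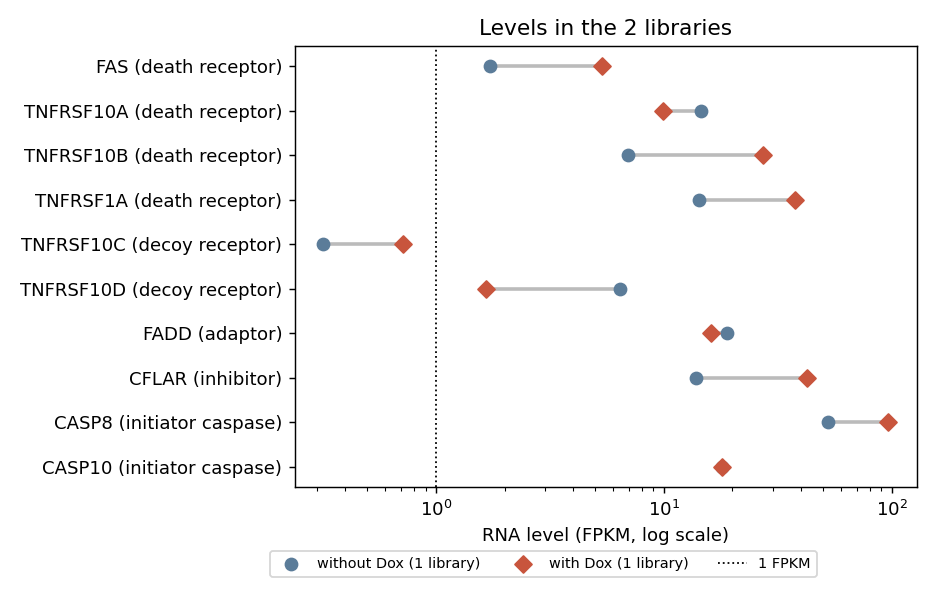
RNA level of the 10 genes in FPKM on a log scale, with 1 circle for the library labelled without Dox and 1 diamond for the library labelled with Dox, joined by a gray line, and a dotted line at 1 FPKM. TNFRSF10B goes from 6.98 to 27.18 FPKM while TNFRSF10D goes from 6.43 to 1.65 FPKM, CASP8 is the most abundant in both libraries, only TNFRSF10C stays under 1 FPKM, and the CASP10 circle lies hidden behind its diamond.

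Among the death receptors, TNFRSF10B, also called DR5 and one of the receptors that pass on the TRAIL signal, had the largest ratio. It was listed at 6.98 FPKM without Dox and 27.18 FPKM with Dox, from 910 and 3632 expected counts. The log2 ratio was 1.95 (1.84 to 2.05), a 3.85-fold difference, at percentile 94.9 of all genes compared. All intervals are exact binomial 95% intervals that cover counting error only, since each condition had 1 library. By the level in FPKM, TNFRSF10B moved from percentile 42.4 to percentile 71.3 of the genes compared.

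TNFRSF10A, or DR4, is the other TRAIL receptor with a death domain and went the opposite way. It stood at 14.51 FPKM and 9.91 FPKM, with 1537.94 and 1119.44 expected counts. Its log2 ratio of -0.55 (-0.66 to -0.43) lay at percentile 16.5, within the 2-fold limit. The counting intervals of the ratio of TNFRSF10A and TNFRSF10B do not meet, but they leave out the spread between cultures. Without Dox the level per length of TNFRSF10A was above that of TNFRSF10B, and with Dox the order was turned around.

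FAS, or CD95, the receptor of FASLG, was the least abundant death receptor per length in both libraries. Its level was 1.73 FPKM without Dox and 5.33 FPKM with Dox, from 141 and 458 expected counts. The log2 ratio was 1.57 (1.299 to 1.847), or 2.97-fold. FAS overlaps ACTA2, a smooth muscle actin gene on the opposite strand that had 9.79 and 58.93 counts, and since the strand of the reads was not stated, reads of the shared stretch cannot be told apart. ACTA2 had far fewer counts than FAS in either library. Genes on the opposite strand also lie over TNFRSF10A (RP11-1149O23.3 with 214 and 299 counts and TNFRSF10A-AS1 with 76.06 and 76.56, beside 1537.94 and 1119.44 for TNFRSF10A itself), FADD (RP11-805J14.5 with 103.26 and 91.52) and CFLAR (CFLAR-AS1 with 5.02 and 13).

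TNFRSF1A, the receptor for TNF that most cells carry, was the most abundant death receptor in the library labelled with Dox. Its level was 14.32 FPKM and 37.65 FPKM, with 631 and 1865.05 expected counts. The log2 ratio of 1.39 (1.26 to 1.52), or 2.62-fold, lay at percentile 89.9. Its level percentile went from 58.1 to 78.5. The 4 death receptors together had 37.54 FPKM without Dox and 80.07 FPKM with Dox, and the median of their 4 log2 ratios was 1.48.

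The decoy receptors were the members with the lowest levels in the library labelled with Dox. TNFRSF10D, or DcR2, which keeps a shortened death domain, was listed at 6.43 FPKM without Dox and 1.65 FPKM with Dox, from 973 and 265 expected counts. Its log2 ratio of -1.90 (-2.09 to -1.71), a ratio of 0.268, placed it at percentile 1.3 of all genes compared. TNFRSF10D has a single listed transcript of 3538 bases and whole counts in both libraries.

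TNFRSF10C, or DcR1, is tied to the membrane by a lipid anchor and has no death domain. It stayed at 0.32 FPKM and 0.72 FPKM and was not compared with the limit. The expected counts were 8.19 and 51.49, and the log2 ratio was 0.97 (0.06 to 2.14) on FPKM but 2.06 on CPM. The mean length of its transcripts, as weighted in the deposited tables, was 797.6 bases without Dox and 1718 bases with Dox, so the counts were divided by different lengths. It also lies over RP11-875O11.5 and RP11-875O11.4 on the same strand, with 104.72 and 181.65 counts for the first and 6.09 and 24.86 for the second, and the split of reads among the 3 is uncertain.

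The composition of TRAIL receptor RNA per length therefore differed between the libraries. The 4 TRAIL receptors summed to 28.24 FPKM without Dox and 39.46 FPKM with Dox. TNFRSF10A was 51.38% of that sum without Dox and 25.11% with Dox, while TNFRSF10B was 24.72% and 68.88%. TNFRSF10D made up 22.77% and 4.18%, and TNFRSF10C 1.13% and 1.82%. The 2 receptors with a death domain summed to 21.49 and 37.09 FPKM and the 2 decoys to 6.75 and 2.37 FPKM, so the level of the first pair was 3.18 times that of the decoys (2.96 to 3.43) without Dox and 15.7 times (13.96 to 17.59) with Dox. These intervals cover counting error only and leave out the spread between cultures.

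**Figure D2:**
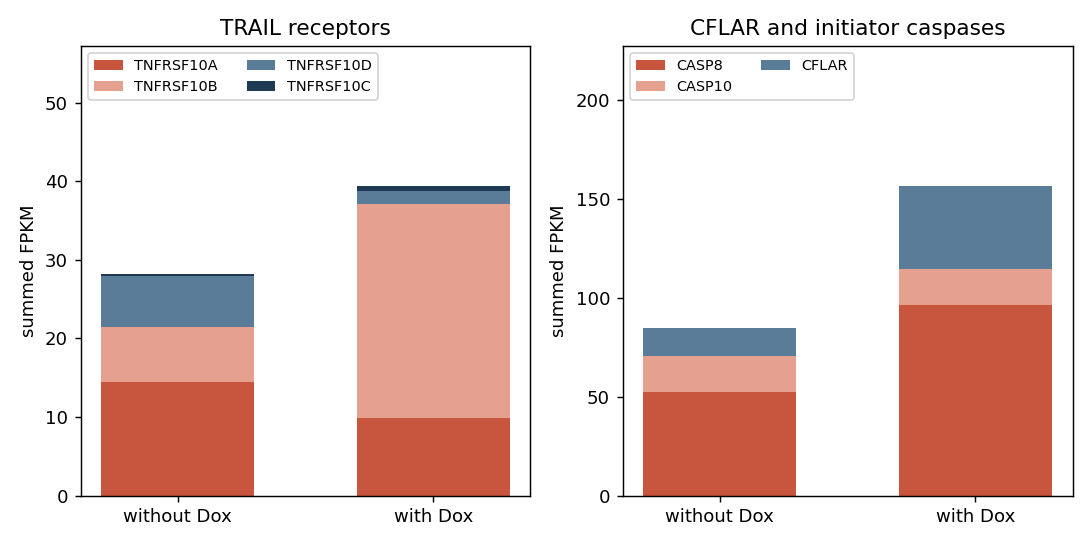
Summed FPKM of the 4 TRAIL receptors (left) and of CFLAR with CASP8 and CASP10 (right), stacked by gene, 1 bar for each library. On the left the TNFRSF10B segment grows from 24.72% to 68.88% of the bar and the TNFRSF10D segment shrinks from 22.77% to 4.18%, and on the right the CFLAR segment grows from 16.36% to 26.99% while the CASP8 segment keeps about the same share.

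The 4 TRAIL receptor genes lie side by side on chromosome 8 (GRCh38, GENCODE 29), between 23020133 and 23225126, a span of 205.0 kb. In the order TNFRSF10B, TNFRSF10C, TNFRSF10D and TNFRSF10A, the log2 ratios were 1.95, 0.97, -1.90 and -0.55. The first pair of neighbors thus lay above 0 and the second pair below it. TNFRSF10C in the first pair was under 1 FPKM in both libraries, and its ratio is uncertain. Within 100 kb of the cluster, a window chosen after the values were seen, the genes compared were RHOBTB2 at -0.17, CHMP7 at -0.89, R3HCC1 at -0.53 and LOXL2 at 0.86. RHOBTB2 overlaps the end of TNFRSF10B on the opposite strand and had 681.31 and 786.98 counts.

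FADD, the adaptor that bridges receptor tail and caspase, was nearly level. It had 18.99 FPKM without Dox and 16.09 FPKM with Dox, from 1393.74 and 1250.48 expected counts. The log2 ratio of -0.24 (-0.35 to -0.13) lay at percentile 28.8. Its counting interval excludes 0, but without replicates the spread between cultures is unknown. The summed death receptor level was 1.98 times that of FADD (1.86 to 2.11) without Dox and 4.98 times (4.69 to 5.29) with Dox. TNFRSF1A, which recruits FADD only through the second complex, made up 38.15% and 47.02% of that sum.

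CFLAR, the inhibitor, differed more than either initiator caspase. The level was 13.83 FPKM without Dox and 42.30 FPKM with Dox, with 2351.48 and 8474.25 expected counts. Its log2 ratio was 1.61 (1.54 to 1.67), or 3.04-fold, at percentile 92.4. CFLAR has 25 listed transcripts of 435 to 14672 bases, which encode long and short forms of the protein, and these gene-level values do not separate them. The mean transcript length was 3944.99 and 4357.39 bases, and on CPM, without a length correction, the log2 ratio was 1.76.

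CASP8, the initiator caspase shared by all of these receptors, was the most abundant of the 10 genes per length in both libraries. It had 52.62 FPKM and 96.46 FPKM, from 4077.4 and 6500.01 expected counts, at level percentiles 84.7 and 92.7. The log2 ratio was 0.87 (0.82 to 0.93), or 1.83-fold, within the limit, and on CPM it was 0.59. The mean length of its 20 listed transcripts, of 230 to 2930 bases, was 1929.78 bases without Dox and 1627.1 with Dox, a ratio of 0.843. Part of the FPKM ratio of CASP8 thus comes from the length the counts were divided by.

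CASP10, the close relative of CASP8, was level between the libraries. It was listed at 18.07 FPKM and 17.99 FPKM, from 3004.02 and 3342.55 expected counts. The log2 ratio was -0.01 (-0.08 to 0.07) on FPKM, with a sign that depended on the scaling, from -0.22 under DESeq2 size factors to 0.09 on TPM (counts scaled by length to a fixed total). The counting intervals of CASP8 and CASP10 do not meet, but they too leave out the spread between cultures.

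Set against each other, the level of CASP8 was 3.81 times that of CFLAR (3.62 to 4.01) without Dox and 2.28 times (2.21 to 2.36) with Dox. With CASP10 added, the initiators stood at 5.11 times CFLAR (4.88 to 5.36) and 2.71 times (2.63 to 2.79). On TPM the factors of CASP8 over CFLAR were 3.80 and 2.28. They had to match, since TPM only rescales the FPKM of all genes in a library. CPM have no length correction and do not rank genes of unlike length. With Dox the mean transcript length was 4357.39 bases for CFLAR and 1627.1 for CASP8. On CPM CASP8 stood at 1.73 and 0.767 times CFLAR, and the counting intervals do not cover this difference. The initiators together stayed above the inhibitor in each library, by a smaller factor in the library labelled with Dox, on FPKM. CFLAR was 16.36% of the summed level of the 3 genes without Dox and 26.99% with Dox, CASP8 62.26% and 61.54%, and CASP10 21.38% and 11.48%. The median log2 ratio of FADD, CFLAR, CASP8 and CASP10 was 0.43, below the 1.48 of the 4 death receptors, a difference that was not tested.

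CFLAR, CASP10 and CASP8 are neighbors on the plus strand of chromosome 2 (GRCh38, GENCODE 29), from 201116104 to 201287711, a span of 171.6 kb. In this order the log2 ratios were 1.61, -0.01 and 0.87, so the gene in the middle had the ratio nearest to 0. In the same 100 kb window the ratios of FAM126B, NDUFB3, ALS2CR12 and TRAK2 were 0.78, -0.29, 0.09 and -0.13. FAS lies on chromosome 10 from 88990582 to 89015785 (plus strand), TNFRSF1A on chromosome 12 from 6328757 to 6342114 (minus strand) and FADD on chromosome 11 from 70203163 to 70207390 (plus strand).

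Promoter windows of 300 bases, which reach from upstream of a start site to just past it, were at hand from RefSeq (GRCh38.p14) for 5 of the 10 genes, FAS, TNFRSF1A, FADD, CFLAR and CASP8, in 12 windows, of which windows of 1 gene can overlap. The stretches just upstream of TNFRSF1A (higher), CASP8 (within 2-fold but higher) and FADD (slightly lower) are shown because they open members of different role and ratio, and each stops at the first base of an annotated exon. In the stretches of CASP8 and FADD, capitals mark the GC box, GGGCGG, on either strand. In that of TNFRSF1A they mark a box named CCAAT after its letters, here on the opposite strand. They read, 5′ to 3′ on the strand of the gene, chr12:6342115-6342326 (minus strand), chr2:201233213-201233442 (plus strand) and chr11:70203046-70203162 (plus strand).
TNFRSF1A: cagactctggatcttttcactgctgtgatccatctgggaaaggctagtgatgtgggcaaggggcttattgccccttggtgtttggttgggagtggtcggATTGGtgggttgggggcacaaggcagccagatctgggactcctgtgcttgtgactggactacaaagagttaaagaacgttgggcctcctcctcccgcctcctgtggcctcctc
CASP8: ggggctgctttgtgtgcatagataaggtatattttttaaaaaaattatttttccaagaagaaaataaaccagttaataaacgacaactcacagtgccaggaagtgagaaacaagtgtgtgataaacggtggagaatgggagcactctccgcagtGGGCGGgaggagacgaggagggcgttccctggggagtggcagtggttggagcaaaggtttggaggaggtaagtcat
FADD: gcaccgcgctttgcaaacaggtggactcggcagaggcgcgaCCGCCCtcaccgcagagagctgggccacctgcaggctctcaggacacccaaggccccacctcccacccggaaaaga

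The TNFRSF1A stretch of 212 bases holds 1 CCAAT box, read on the opposite strand, and no GC box, while those of CASP8 (230 bases) and FADD (117 bases) hold 1 GC box each. Over the whole windows and both strands, GGGCGG was in 7 of 12 windows of these genes and in 45.0% of all 35116 windows, and CCAAT was in 2 of 12 and 34.6%. TGANTCA, the letters bound by AP-1 factors, was in 5 of 12 windows, from CASP8, CFLAR, FADD and FAS, and in 7.71% of all. Windows of 1 gene can overlap and share a match, so this counts windows and not genes. TNFRSF1A had no such match, and the TRAIL receptor genes and CASP10 had no window. The composite letters of ATF4 and CHOP, TGATGNAA, were in 0 of 12 and 3.62%, which says only that these letters are not in these windows. Matches of different motifs were counted separately where they overlapped. A match is no measure of binding.

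Of 5 ligands listed for receptors with a death domain, not all of which bind the receptors described here, 1 reached 1 FPKM. TNFSF10 (TRAIL) had 1.54 FPKM and 1.29 FPKM, from 106 and 100 expected counts, a log2 ratio of -0.24. FASLG was listed at 0 counts in both libraries. TNF had 6 and 3 counts, TNFSF15 had 2 and 13.64 counts, and LTA, or lymphotoxin alpha, had 6 and 56 counts, 0.10 and 0.91 FPKM. The higher receptor levels were thus seen in cells with little ligand RNA in either library.

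Other receptors of the superfamily mostly lay lower in the library labelled with Dox. Among 16 receptors without a death domain, 10 were compared, and 1 was past 2-fold higher and 5 lower. Their median log2 ratio was -0.997 beside 0.15 over all genes, of which 17.0% were past 2-fold higher and 6.41% lower. TNFRSF1B, the second TNF receptor, had 40.19 FPKM and 14.20 FPKM, a log2 ratio of -1.49, while that of TNFRSF1A was 1.39. RELT (-1.60), TNFRSF8 (CD30, -1.55), TNFRSF18 (GITR, -1.09) and TNFRSF12A (-1.71) were the other four that were lower. The one that was higher was TNFRSF17, or BCMA, a survival receptor of plasma cells, at 97.72 and 203.73 FPKM, a log2 ratio of 1.06, a call that ended under TMM and DESeq2 size factors (0.84 under DESeq2). The call of TNFRSF18 ended on TPM and with a pseudocount of 1 FPKM (-0.90 in the latter).

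Among 4 other receptors with a death domain, 2 were compared, TNFRSF21 (DR6) at 2.43 and 1.16 FPKM, a log2 ratio of -1.01, and TNFRSF25 (DR3) at -0.69. The first was past 2-fold lower, but not on TPM or with a pseudocount of 1 FPKM (-0.67 in the latter). Of 2 soluble decoys, TNFRSF6B was listed at 0 counts and TNFRSF11B had 2 and 3 counts. FAS, TNFRSF10B and TNFRSF1A lay above 1 on this scale, and the difference from the other receptors was not tested.

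Inside the cell, 6 of 6 adaptors and kinases of the receptor complexes were within 2-fold, as FADD was, with a median log2 ratio of -0.06. Of all genes compared, 23.4% were past 2-fold in either direction. TRADD, which links TNFRSF1A to its complex, was at -0.49, the kinase RIPK1 at -0.06 and the ubiquitin ligase TRAF2 at -0.18. Of 3 other proteins with a death effector domain, the fold that FADD, CFLAR and the initiator caspases share, none passed 2-fold on FPKM, and PEA15 had the ratio farthest from 0, -0.95, from 60.53 FPKM to 31.38 FPKM. Under TMM and DESeq2 size factors PEA15 passed 2-fold lower, at -1.16 under DESeq2.

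Regulators of ubiquitin chains on the receptor complexes had 3 of 10 genes past 2-fold higher and 0 lower. Over all genes compared the shares were 17.0% and 6.41%. The median log2 ratio of the regulators, 0.62, lay below the 75th percentile of all genes compared, 0.71. RBCK1, or HOIL-1, a subunit of the linear ubiquitin ligase, had 14.40 and 53.23 FPKM, a log2 ratio of 1.88. CYLD, which removes such chains, had 11.47 and 31.75 FPKM (1.46), and BIRC3, or cIAP2, which adds chains to RIPK1, had 3.36 and 7.35 FPKM (1.11). The call of BIRC3 ended with a pseudocount of 1 FPKM and under TMM and DESeq2 size factors (0.89 under DESeq2), which left 2 of 10 higher. In these 3 settings 10.8%, 13.1% and 12.9% of all genes compared were past 2-fold higher.

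Of 3 genes listed for necroptosis, the caspase-independent death that CASP8 holds back, 1 was past 2-fold higher and 2 lower. Over all genes compared the shares were 17.0% and 6.41%. The list was chosen with earlier results known, and RIPK1, which could also stand in it, was counted above at -0.06. MLKL, which breaks the membrane, had 8.82 and 2.37 FPKM, a log2 ratio of -1.85, and its kinase RIPK3 had 2.13 and 0.65 FPKM (-1.57), while the nucleic acid sensor ZBP1 had 1.22 and 3.36 FPKM (1.39). With a pseudocount of 1 FPKM the calls of RIPK3 (-0.92) and ZBP1 (0.97) ended and that of MLKL remained, and the same gene alone was left by a filter of 5 FPKM. Beside 23.4% of all genes compared, 1 of 9 genes downstream of the initiators was past 2-fold. This was BID, the substrate through which CASP8 reaches the mitochondria, at 98.09 and 44.89 FPKM, a log2 ratio of -1.13, which was within the limit on CPM at -0.80.

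Transcription factors known to act on death receptor genes had 4 of 8 compared past 2-fold higher and 0 lower. Their median log2 ratio was 0.92, and of all genes compared 17.0% were past 2-fold higher and 6.41% lower. ATF3 had 3.94 and 99.71 FPKM, a log2 ratio of 4.63, DDIT3 (CHOP), which can activate TNFRSF10B, had 8.69 and 72.90 FPKM (3.05), and ATF4 had 406.22 and 1026.75 FPKM (1.34). TP63 was the fourth, at 0.69 and 2.73 FPKM (1.84). Whether any of these factors bears on the receptor levels was not tested.

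Lists made by others are read against the 17.0% higher and 6.41% lower of all genes compared. The GO term for extrinsic apoptotic signaling through death domain receptors, as annotated in the deposited tables, held 87 genes, of which 63 were compared, with 7 past 2-fold higher, 1 lower and a median log2 ratio of 0.07. It includes 8 of the 10 genes described. Without them, 3 of 56 were higher (ATF3, the survival gene BCL2 at 18.54 and 70.67 FPKM, and the BH3-only gene PMAIP1 at 12.38 and 35.71 FPKM) and 1 lower (BID), with a median of 0.01. The term for the death-inducing signaling complex had 2 of 8 higher and a median of 0.43, and without the 5 genes described, 0 of 3. Death receptor activity had 2 of 9 higher and 2 lower (median -0.55), and 0 and 2 of 6 without the genes described, and death receptor binding had 1 of 14 higher and 1 lower (0.05), and 0 and 1 of 11.

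The genes most like the 3 members with the largest ratios, by the distance of log2 levels over the 2 libraries, were near them only in these 2 values. Those nearest to TNFRSF10B were RP11-196G18.23, at 6.99 and 28.70 FPKM and a distance of 0.0783, and RP1-224A6.4, at 0.0803. CFLAR was nearest to DNAJB2, a co-chaperone gene, at 13.87 and 43.92 FPKM (0.0543), and UFSP2, a protease of the UFM1 modifier, at 14.27 and 41.26 FPKM (0.0574). For TNFRSF10D the nearest were MGC14436 (0.182) and PKDCC at 5.67 and 1.72 FPKM (0.187).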

How the data were processed

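RNA-seq was made from poly(A) RNA of ARP1-SRD5A1-KD cells and sequenced as 150-base read pairs (Illumina NovaSeq). The submitters' processing notes name hg19, Bowtie 0.12.2, HISAT2 2.1.0 and StringTie 1.3.4d, with no role for each. The deposited tables, 1 for each library, give per gene an expected count that splits reads among transcripts and need not be whole, the effective length used as divisor, TPM and FPKM, all computed by the authors. They carry no coordinates. All 111 of 111 listed transcripts of the 10 genes are in GENCODE 29, whose GRCh38 coordinates are given. For 7 of the 10 genes at least 1 count was not whole, and reads shared among related receptors may be split.

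A pseudocount of 0.1 was added to FPKM before the log2 ratio was formed, genes below 1 FPKM in both libraries were set aside, and those beyond 2-fold were counted. Each condition had 1 library, so no replicate error and no p-value can be given. Intervals are Clopper-Pearson at 95% on expected counts. The members and lists were chosen with earlier results of these data known. Besides the members, DDIT3 and the ligands, the rule named up to 4 genes of a list that were past 2-fold and at 5 FPKM or more. TNFRSF12A, TNFRSF21, TNFRSF25, RIPK3, ZBP1, TP63, PEA15, TRADD, RIPK1, TRAF2, BCL2, PMAIP1 and the neighbors of the clusters were named after their values were seen. Some genes of the lists are not reported here by name. Alternatives were a pseudocount of 1 or 0.01 FPKM, TPM, CPM, TMM factors (edgeR 4.0.16), DESeq2 1.42.0 size factors, filters of 0 or 5 FPKM and a limit of 1.5-fold. The log2 ratio and its interval were tested in Python 3.11.15 on simulated counts with counting error only, with R 4.3.3 for the scaling factors. The simulation used the same length in both libraries and checked genes with many counts. Lengths that differ between libraries and genes with few counts were not tested.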

Additional observations from a re-analysis of the deposited data

How the results depend on the processing

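No paired analysis was possible because each condition had 1 library, and for the same reason no library could be left out. The count of members past 2-fold stayed at 4 higher and 1 lower under all alternatives except a limit of 1.5-fold, which gave 5 higher, CASP8 included, beside 29.3% of all genes. Counts of all genes past 2-fold moved over 1.5 times under a pseudocount of 1 FPKM (1606 higher and 651 lower), TMM factors (1946 and 1527), DESeq2 size factors (1922 and 1562), no filter (4735 and 1897 of 57485), a filter of 5 FPKM (1256 and 603 of 10480) and the 1.5-fold limit (4358 and 2288), each in at least 1 direction. The median log2 ratio of the 4 death receptors was 1.27 with a pseudocount of 1 FPKM, 1.58 on TPM, 1.28 under TMM and 1.26 under DESeq2. That of FADD, CFLAR, CASP8 and CASP10 was 0.33 on CPM, 0.23 under TMM and 0.22 under DESeq2. CPM have no length correction, and on them the TRAIL death receptors stood at 2.50 times the decoys without Dox, CASP8 at 1.73 and 0.767 times CFLAR without and with Dox, both initiators at 3.01 and 1.16 times CFLAR, and the summed death receptors at 2.31 and 5.66 times FADD. The lists of related genes and of cell type markers kept 175 of 192 counts within 1.5 times. Lists with few genes compared, such as the soluble decoys with 0, had little room to move. The share kept is therefore no measure of how stable the lists are.

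The counting interval of CASP10 includes 0, and that of TNFRSF10C, with the fewest counts, is the widest. The log2 ratio of TNFRSF10C ran from 0.38 to 2.06 over 6 alternatives. The differences between 2 single cultures cannot be told from the spread between cultures.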
